A study of Mus musculus with 2 samples.

Results

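The extended interferon-stimulated gene module is a list of 38 genes, chosen by symbol from the 32285 genes of the deposited matrices and read gene by gene across marker-gated cell classes and macrophage states. The genes were described in cells recovered from scaffolds in a mouse skull defect, with 1 library of single cells per scaffold. The Gel50_CS50 and Gel100 groups were alike in all other labelled respects: female Balb/c mice aged 6 weeks, a circular defect of 3.5 mm in the cranial bone, an acellular scaffold as filling, and harvest at week 1. Scaffolds of 5 mice were pooled per group and live cells were sorted for a droplet 3′ kit, so each group is 1 library from 1 pool and has no replicate. The labels do not spell out the scaffold names.

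Type I interferons are secreted proteins that cells release after sensing foreign or misplaced nucleic acid. They bind a receptor carried by nearly all nucleated cells, and the signal brings Stat2 and Irf9 into a complex that binds a short element in the promoters of its target genes. The products of these genes block viral RNA and protein synthesis, tag proteins with the ubiquitin-like protein Isg15, sense nucleic acid and restrain the signal itself. Many of them are also induced, to a lesser degree, by interferon gamma.

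The promoter element is shown first, as a property of the reference sequence that the counts did not use. The list is one of interferon-stimulated genes, so a raised share of matches is not independent of how the list was put together. Close relatives such as Ifit3 and Ifit3b count as separate genes. Promoter windows of 250 bases before to 50 bases after the annotated start site were taken from RefSeq on build GRCm38.p6, and 31 of the 38 genes had an entry. The motif searched was GAAANNGAAA, read on both strands with overlapping matches allowed. It was present in 16 of the 31 genes (51.6%), against 1079 of all 27025 genes in the table (3.99%). Promoters of 6 genes are printed 5′ to 3′ on the strand of the gene, with motif matches in capitals: 4 of genes that were more than 1.5-fold lower in Gel50_CS50 macrophages, and those of Bst2 and Ifitm3, whose macrophage difference was below 1.5-fold. They are those of Isg15 (chr4:156200769-156201068, minus strand), Rsad2 (chr12:26456403-26456702, minus strand), Ifit1 (chr19:34640639-34640938, plus strand), Ifit3 (chr19:34583279-34583578, plus strand), Bst2 (chr8:71537423-71537722, minus strand) and Ifitm3 (chr7:141010695-141010994, minus strand).
Isg15: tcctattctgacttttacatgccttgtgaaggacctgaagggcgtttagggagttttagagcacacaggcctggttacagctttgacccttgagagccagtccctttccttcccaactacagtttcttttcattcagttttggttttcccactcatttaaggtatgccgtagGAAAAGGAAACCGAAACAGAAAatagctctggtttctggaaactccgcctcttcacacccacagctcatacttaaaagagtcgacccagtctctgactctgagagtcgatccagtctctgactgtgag
Rsad2: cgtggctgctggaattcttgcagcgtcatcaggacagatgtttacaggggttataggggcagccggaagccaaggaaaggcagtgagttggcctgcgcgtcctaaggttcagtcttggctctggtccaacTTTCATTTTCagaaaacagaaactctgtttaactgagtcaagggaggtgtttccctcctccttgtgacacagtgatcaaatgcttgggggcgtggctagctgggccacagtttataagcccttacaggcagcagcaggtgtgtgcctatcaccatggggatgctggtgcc
Ifit1: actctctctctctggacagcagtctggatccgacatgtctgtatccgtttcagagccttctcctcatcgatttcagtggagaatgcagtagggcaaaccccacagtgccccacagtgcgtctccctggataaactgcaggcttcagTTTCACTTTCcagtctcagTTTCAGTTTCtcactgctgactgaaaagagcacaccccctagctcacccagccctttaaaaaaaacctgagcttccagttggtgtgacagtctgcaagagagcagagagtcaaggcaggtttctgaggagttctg
Ifit3: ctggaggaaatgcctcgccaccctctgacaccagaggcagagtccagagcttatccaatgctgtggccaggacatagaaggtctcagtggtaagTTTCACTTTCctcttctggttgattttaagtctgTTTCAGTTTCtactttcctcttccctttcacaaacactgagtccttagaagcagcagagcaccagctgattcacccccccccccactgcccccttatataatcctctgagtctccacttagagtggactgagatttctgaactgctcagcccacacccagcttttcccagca
Bst2: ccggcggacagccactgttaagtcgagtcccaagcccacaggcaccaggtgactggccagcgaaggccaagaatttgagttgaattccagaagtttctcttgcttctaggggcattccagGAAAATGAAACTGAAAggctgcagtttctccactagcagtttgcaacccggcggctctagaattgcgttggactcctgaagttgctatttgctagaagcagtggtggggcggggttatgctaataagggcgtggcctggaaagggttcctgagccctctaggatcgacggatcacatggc
Ifitm3: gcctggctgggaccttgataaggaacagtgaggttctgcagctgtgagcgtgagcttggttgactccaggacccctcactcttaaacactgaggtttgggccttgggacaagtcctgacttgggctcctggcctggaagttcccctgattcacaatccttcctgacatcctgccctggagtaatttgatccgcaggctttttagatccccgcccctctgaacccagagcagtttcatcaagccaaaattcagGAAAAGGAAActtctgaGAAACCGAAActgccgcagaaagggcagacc

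In Isg15 the capitals cover 3 overlapping matches that began 78, 72 and 66 bases before the start site. Ifit1 and Ifit3 each held 2 separate matches on the opposite strand, Bst2 held 2 overlapping ones, and both matches of Ifitm3 lay just after its start site. In the plot of match positions most matches lay before the start site. Ifit2, Oasl1, Cmpk2 and Irf9 had an entry and no match, which says only that these letters are not in this window.

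**Figure D1:**
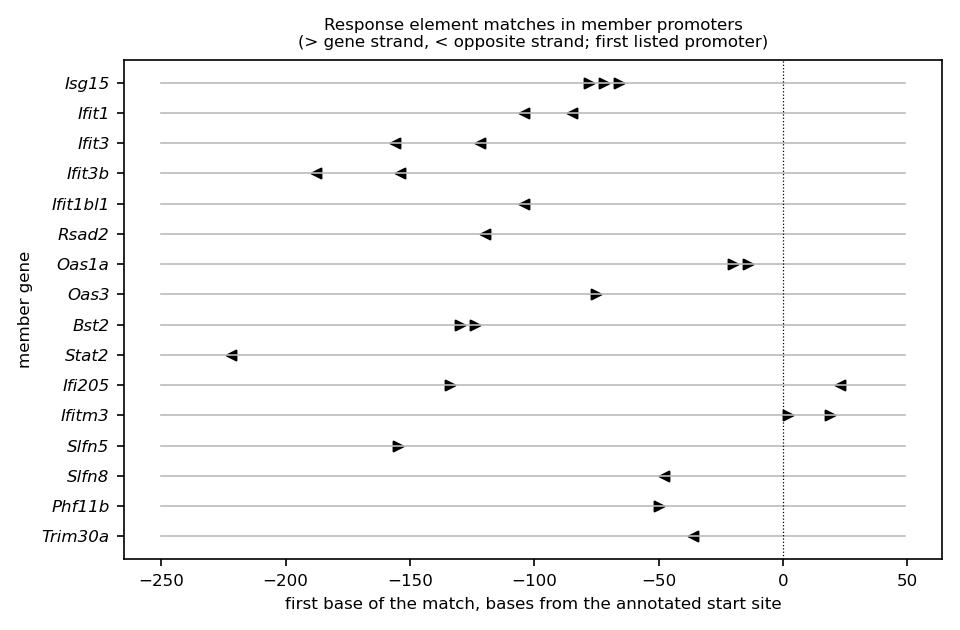
Positions of GAAANNGAAA matches in 1 promoter of each of the 16 members that held the motif, with genes down the page and the distance of the first base of a match from the annotated start site, in bases, along the x axis; right-pointing marks are on the strand of the gene and left-pointing marks on the opposite strand. Isg15 shows 3 overlapping matches, and Ifitm3 shows 2 matches after the start site.

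Several members are neighbours in the genome. In the GENCODE vM21 annotation of mm10, Ifit2 (chr19:34550694-34576419), Ifit3 (chr19:34583531-34588731), Ifit1bl1 (chr19:34592891-34601956), Ifit3b (chr19:34607970-34613401) and Ifit1 (chr19:34640871-34650009) lay in 1 cluster on chromosome 19. Rsad2 (chr12:26442746-26456452) and Cmpk2 (chr12:26469204-26479837) were 12751 bases apart on opposite strands. Parp9 and Dtx3l overlap on opposite strands of chromosome 16. The reads of Ifit3, Ifit1bl1, Oas1a, Ifi205 and Phf11b could be split with a near-identical gene, as each shared with one at least 20% of the 31-base stretches in its last 500 transcript bases, so their levels are uncertain.

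After filtering there were 7206 cells in Gel50_CS50, at a median depth of 16509.5 UMIs, and 7601 cells in Gel100, at 12707 UMIs. A UMI tags and counts 1 captured RNA molecule. Cells were put into classes by fixed markers without any member of the list, and each class name means cells like that type. There were 3438 and 4068 macrophages and monocytes, 1261 and 571 neutrophils, 661 and 234 stromal cells, 233 and 353 T cells, 167 and 441 NK cells, 241 and 407 plasmacytoid dendritic cells, and 62 and 92 conventional dendritic cells in the Gel50_CS50 and Gel100 libraries. Each class had 2 to 5 genes of its own marker list among its top 10 genes, which the gating on these markers favours. Hdc, a mast cell marker, was also among the top 10 genes of the neutrophils. The conventional dendritic cells were led by Ccr7, Il12b and Ccl22, genes of mature, migrating dendritic cells. Cells left without a class made up 14.5% and 18.1%, with median depths of 14926.5 UMIs in Gel50_CS50 and 1414.5 UMIs in Gel100, and they enter no comparison. Of the kept barcodes, 23 occurred in both libraries. C1qc, a macrophage gene, stood in the other 6 classes at 2.99% or less of its macrophage level in both libraries.

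Levels are the UMIs of a gene summed over the cells of a class and scaled to a class total of 1e+06 (CPM), and ratios are log2 values of Gel50_CS50 over Gel100, so a negative ratio means lower in Gel50_CS50. Intervals are 95%, exact Poisson for levels and exact conditional binomial for ratios. They cover counting error alone, and with 1 pool per scaffold no test between the scaffolds is possible. A gene counted as measured in a class where its mean over both libraries reached 20 CPM, and as lower or higher past 1.5-fold. In such sums, fewer cells with a transcript and less of it per cell cannot be told apart. CPM is a share of the UMIs of a class and not an amount per cell. The kit counts 3′ ends, so levels are compared between cells and not between genes.

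The list was lower in the Gel50_CS50 library in all 7 classes with enough cells, and by very different amounts. It was chosen with earlier results of these data known, so the counts below describe the list and are not a test of it. In macrophages and monocytes 29 of 38 members were lower past 1.5-fold, where 4.39% of 6131 measured genes were lower and 2.27% higher, and the median ratio of the members was -0.83 against -0.00 over all genes. In conventional dendritic cells 32 of 34 measured members were lower (median -1.09), where 10.6% of all genes were lower and 7.59% higher. In neutrophils 25 of 36 were lower (median -0.76), where 14.6% of all genes were lower and 6.93% higher. In T cells 20 of 35 were lower (median -0.69), where 2.9% of all genes were lower and 2.08% higher. The shortfall was smaller in the remaining classes. In stromal cells 8 of 34 members were lower (median -0.36), where 2.36% of all genes were lower and 1.4% higher. In NK cells 8 of 31 were lower (median -0.37), where 2.8% of all genes were lower and 1.77% higher. In plasmacytoid dendritic cells 5 of 25 were lower (median -0.31), where 1.23% of all genes were lower and 1.82% higher. No measured member was higher past 1.5-fold in these 7 classes. The counts of the weaker classes moved with the settings: with each cell weighted equally 24 of 36 members were lower in stromal cells, with a stricter gate 15 of 31 in NK cells, and with no minimum level 14 of 37 in plasmacytoid dendritic cells. No share of all genes past 1.5-fold is given for these settings. The counts therefore show how far the result depends on the setting. The medians also moved further below 0 under these settings. They were -0.66 in stromal cells, -0.52 in NK cells and -0.48 in plasmacytoid dendritic cells. Of the 233 measured pairs of member and class, 5 had a ratio above 0: Ifit1, Ifitm3, Slfn8 and Sp100 in NK cells and Bst2 in plasmacytoid dendritic cells. Whether the classes differ in their ratios beyond the spread between mice cannot be tested with 1 pool per scaffold.

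**Figure D2:**
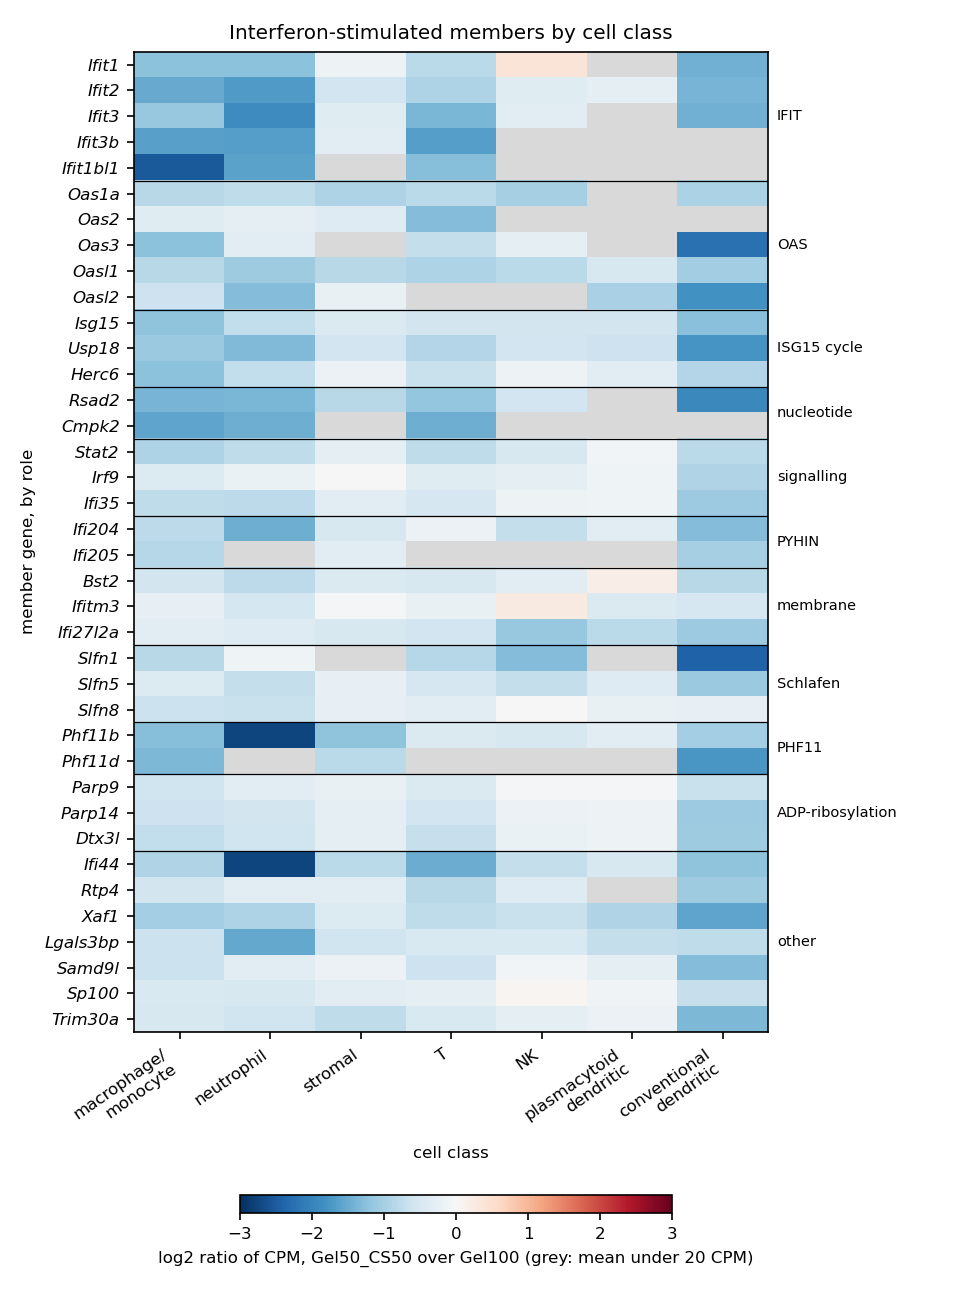
Heat map of the log2 ratio of CPM, Gel50_CS50 over Gel100, for the 38 members, grouped by role down the page, in 7 cell classes across; blue is lower in Gel50_CS50, red is higher and grey marks genes with a mean under 20 CPM. All measured members have ratios below 0 in the macrophage, neutrophil, stromal, T and conventional dendritic columns. The few red cells are in NK and plasmacytoid dendritic cells.

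The members at the ends of the range differed by class. In macrophages the lowest ratios were those of Ifit1bl1 (-2.52), Ifit3b (-1.63) and Cmpk2 (-1.59), and the highest those of Ifitm3 (-0.25), Ifi27l2a (-0.33) and Oas2 (-0.37). In neutrophils they were Phf11b (-2.76), Ifi44 (-2.76) and Ifit3 (-1.88) at the low end and Slfn1 (-0.12), Irf9 (-0.19) and Oas2 (-0.30) at the high end. A ratio at the low end can rest on a gene that reached the 20 CPM limit through Gel100 alone. This held for Phf11b and Ifi44 in neutrophils, with 5.15 and 10.97 CPM in Gel50_CS50 and 34.9 and 74.3 CPM in Gel100. It also held for Ifit1bl1 in macrophages, with 16.9 CPM in Gel50_CS50 and 97.2 CPM in Gel100. In stromal cells Phf11b (-1.21), Oas1a (-0.94) and Oasl1 (-0.84) were lowest and Irf9 (-0.02), Ifitm3 (-0.05) and Ifit1 (-0.16) highest. The stromal order thus shared Phf11b with neutrophils at the low end. In T cells Ifit3b (-1.65), Ifi44 (-1.50) and Cmpk2 (-1.46) were lowest and Ifi204 (-0.18), Ifitm3 (-0.22) and Sp100 (-0.29) highest. In NK cells Slfn1 (-1.29), Ifi27l2a (-1.15) and Oas1a (-1.005) were lowest and Ifit1 (0.40), Ifitm3 (0.27) and Sp100 (0.06) highest. In plasmacytoid dendritic cells Oasl2 (-0.98), Xaf1 (-0.89) and Ifi27l2a (-0.81) were lowest and Bst2 (0.19), Parp9 (-0.05) and Stat2 (-0.08) highest. Conventional dendritic cells had Slfn1 (-2.42), Oas3 (-2.23) and Rsad2 (-1.94) at the low end and Slfn8 (-0.24), Ifitm3 (-0.51) and Parp9 (-0.68) at the high end. Ifitm3 was among the highest ratios in 5 of the 7 classes.

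Of the Isg15 cycle, all 3 genes were lower past 1.5-fold in macrophages, neutrophils and conventional dendritic cells, 2 in T cells, 1 in plasmacytoid dendritic cells and 0 in stromal and NK cells. Isg15, the ubiquitin-like tag that is joined to newly made proteins, had 439.9 CPM in Gel50_CS50 macrophages and 1009 CPM in Gel100 macrophages, a ratio of -1.20 (-1.22 to -1.18). The share of Isg15 was highest in neutrophils, at 2847 CPM in Gel50_CS50 and 4774 CPM in Gel100. Stromal, T and NK cells had 455, 265 and 128 CPM in Gel50_CS50, against 613, 388 and 189 CPM in Gel100. None of those 3 differences passed 1.5-fold. The dendritic cells led by Ccr7 had 457 CPM in Gel50_CS50 and 1094 CPM in Gel100, and their ratio of -1.26 (-1.41 to -1.11) was close to that of macrophages. Plasmacytoid dendritic cells had 154 CPM in Gel50_CS50 and 227 CPM in Gel100.

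Usp18 removes Isg15 from proteins and also blocks signalling at the interferon receptor. It had 90.3 CPM in Gel50_CS50 macrophages and 195 CPM in Gel100 macrophages (ratio -1.11, -1.16 to -1.07), and 254 CPM in Gel50_CS50 neutrophils against 639 CPM in Gel100 neutrophils. Stromal, T and NK cells had 53.2, 68.0 and 83.5 CPM in Gel50_CS50, against 78.7, 126 and 125 CPM in Gel100. Plasmacytoid and conventional dendritic cells had 71.2 and 43.2 CPM in Gel50_CS50, against 110.3 and 147 CPM in Gel100. Usp18 was highest in neutrophils, like Isg15, and its lowest ratio was the -1.77 of conventional dendritic cells. Herc6, the ligase that attaches Isg15 in mice, had a ratio of -1.23 in macrophages, -0.74 in neutrophils and -0.15 in NK cells, the last with an interval of -0.30 to 0.00.

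Rsad2 and Cmpk2 stand side by side in the genome and in function: Cmpk2 makes the nucleotide that Rsad2, also called viperin, turns into a terminator of viral RNA synthesis. Rsad2 had 361 CPM in Gel50_CS50 macrophages and 952 CPM in Gel100 macrophages, a ratio of -1.40 (-1.42 to -1.38). Neutrophils held 3404 CPM in Gel50_CS50 and 8811 CPM in Gel100, with nearly the same ratio of -1.37 (-1.40 to -1.35). In each library the neutrophil level was about 9 times the macrophage level, 9.42-fold in Gel50_CS50 and 9.25-fold in Gel100. Stromal, T and NK cells were far below both, with 33.8, 63.0 and 38.5 CPM in Gel50_CS50 and 60.05, 141 and 57.1 CPM in Gel100. Conventional dendritic cells had 52.4 CPM in Gel50_CS50 and 201 CPM in Gel100, and plasmacytoid ones had 11.9 CPM in Gel50_CS50 and 25.3 CPM in Gel100, a mean under the limit for a measured gene. Cmpk2 followed the same order at lower counts, with 53.2 CPM in Gel50_CS50 and 160.1 CPM in Gel100 macrophages (ratio -1.59) and 296 CPM in Gel50_CS50 and 811 CPM in Gel100 neutrophils (ratio -1.45).

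The IFIT genes, whose proteins bind foreign RNA and hold back its translation, had the lowest median of the role groups in macrophages: all 5 were lower past 1.5-fold, with a median of -1.52. Ifit1 had 142 CPM in Gel50_CS50 macrophages and 332 CPM in Gel100 macrophages (ratio -1.23), and 1062 CPM in Gel50_CS50 neutrophils against 2501 CPM in Gel100 neutrophils (ratio -1.24). Stromal and T cells had 152 and 148 CPM of Ifit1 in Gel50_CS50, against 170.3 and 259 CPM in Gel100. In NK cells the order turned, with 52.3 CPM in Gel50_CS50 and 39.8 CPM in Gel100, a ratio of 0.40 whose interval of 0.05 to 0.74 lay just above 0. Conventional dendritic cells had 57.0 CPM in Gel50_CS50 and 154 CPM in Gel100, and plasmacytoid dendritic cells had 14.2 CPM in Gel50_CS50 and 20.3 CPM in Gel100.

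Ifit2, which also binds RNA and the other IFIT proteins, had 186 CPM in Gel50_CS50 macrophages and 535 CPM in Gel100 macrophages (ratio -1.52, -1.55 to -1.49), and 345 CPM in Gel50_CS50 against 1117 CPM in Gel100 neutrophils. In stromal, T and NK cells it had 25.6, 51.4 and 61.7 CPM in Gel50_CS50 and 38.4, 98.2 and 79.5 CPM in Gel100. Conventional dendritic cells had 115 CPM in Gel50_CS50 and 303 CPM in Gel100, and plasmacytoid dendritic cells had 55.2 CPM in Gel50_CS50 and 66.4 CPM in Gel100. Ifit2 was the only IFIT gene measured in plasmacytoid dendritic cells. Ifit3 was nearly missing from them, at 2.06 CPM in Gel50_CS50 and 9.79 CPM in Gel100.

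Ifit3, a partner that stabilises Ifit1 on RNA, had 144 CPM in Gel50_CS50 macrophages and 314 CPM in Gel100 macrophages (ratio -1.13). Neutrophils had 261 CPM in Gel50_CS50 and 959 CPM in Gel100, a ratio of -1.88 (-1.97 to -1.79). Stromal, T and NK cells had 78.4, 63.8 and 40.5 CPM of Ifit3 in Gel50_CS50, against 101, 165 and 51.6 CPM in Gel100, and conventional dendritic cells had 25.7 CPM in Gel50_CS50 and 70.3 CPM in Gel100. Its neighbour and close relative Ifit3b had its highest level in neutrophils, with 457 CPM in Gel50_CS50 and 1445 CPM in Gel100 neutrophils, about 11 times the macrophage level in both libraries (11.1-fold and 11.4-fold). Ifit1bl1 had the lowest ratio of any member in macrophages, -2.52 (-2.61 to -2.43), at 16.9 CPM in Gel50_CS50 and 97.2 CPM in Gel100. Ifit3 shares sequence with Ifit3b and Ifit1bl1 with Ifit1bl2, so how each pair divides its reads is uncertain.

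**Figure D3:**
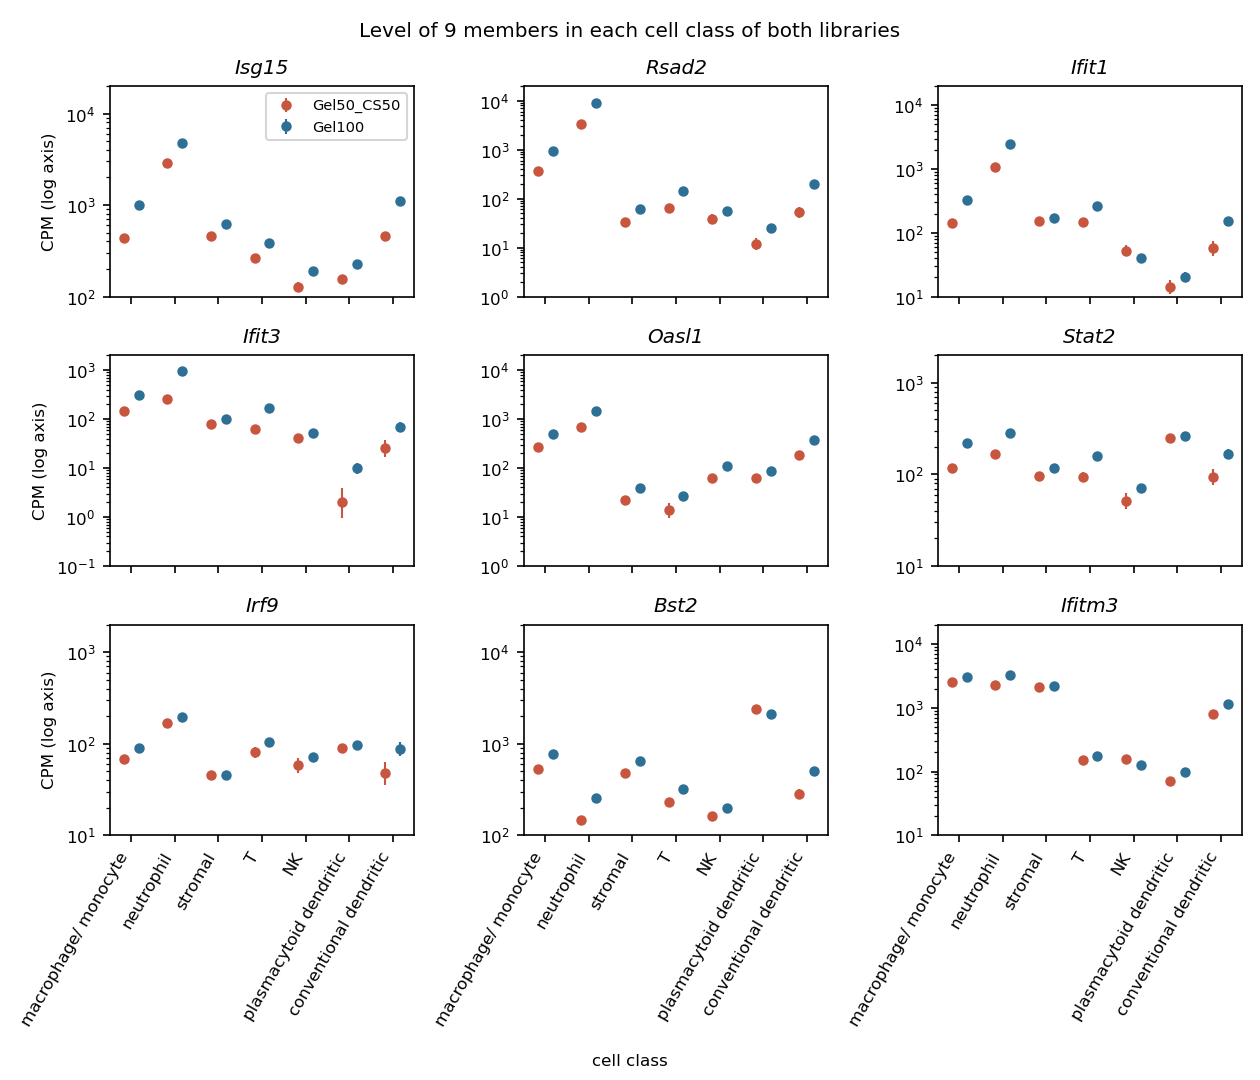
CPM (log axis) of 9 members in 7 cell classes, Gel50_CS50 in red and Gel100 in blue, with exact Poisson 95% intervals that are mostly smaller than the points. Rsad2, Isg15 and Ifit1 peak in neutrophils, Bst2 peaks in plasmacytoid dendritic cells, and the Irf9 points of the libraries lie close together in stromal cells.

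The OAS genes code for enzymes that make a short adenylate messenger when they meet double-stranded RNA, and for inactive relatives of these. In macrophages 4 of 5 were lower past 1.5-fold. Oasl1, which in mice restrains translation of Irf7, had 274 CPM in Gel50_CS50 and 489.7 CPM in Gel100 macrophages (ratio -0.84), and 703 CPM in Gel50_CS50 against 1473 CPM in Gel100 neutrophils. Stromal, T and NK cells had 21.8, 13.9 and 63.2 CPM in Gel50_CS50, against 38.9, 26.6 and 111 CPM in Gel100. In plasmacytoid and conventional dendritic cells it had 61.6 and 187 CPM in Gel50_CS50, against 86.1 and 382 CPM in Gel100. The Oasl1 ratio was past 1.5-fold in 6 of the 7 classes and stood at -0.48 in plasmacytoid dendritic cells.

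Oas1a, an active member of the family, had 101 CPM in Gel50_CS50 and 181 CPM in Gel100 macrophages, and 80.0 CPM in Gel50_CS50 and 136 CPM in Gel100 neutrophils. For stromal, T and NK cells the levels were 31.7, 35.9 and 27.2 CPM in Gel50_CS50, against 60.8, 63.5 and 54.5 CPM in Gel100. Conventional dendritic cells had 34.0 CPM in Gel50_CS50 and 65.9 CPM in Gel100, while plasmacytoid dendritic cells had 7.32 CPM in Gel50_CS50 and 24.8 CPM in Gel100. Oas1a was 1 of 4 members, with Ifit1bl1, Cmpk2 and Phf11d, that were lower past 1.5-fold in every class where they were measured. Oas1a was measured in 6 of the 7 classes, but Ifit1bl1, Cmpk2 and Phf11d in only 3 each. The highest ratio of Oas1a was the -0.77 of neutrophils. Oas1g shares 70% of the Oas1a stretches compared, so part of these reads may be its own. Oas3 was uneven, with a ratio of -1.23 in macrophages, -0.33 in neutrophils and -2.23 in conventional dendritic cells, and Oas2 passed 1.5-fold in T cells alone among the 4 classes where it was measured (ratio -1.29). Oasl2, a relative of Oasl1, had a ratio of -0.62 in macrophages and -0.22 in stromal cells.

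Of the 3 members tied to signalling, 2 were lower past 1.5-fold in macrophages and none in stromal, NK or plasmacytoid dendritic cells. Stat2, part of the complex that binds the promoter element, had 117 CPM in Gel50_CS50 and 221 CPM in Gel100 macrophages (ratio -0.92), and 167 CPM in Gel50_CS50 and 282 CPM in Gel100 neutrophils. The stromal, T and NK levels were 94.996, 93.9 and 51.4 CPM in Gel50_CS50, against 117, 159 and 71.4 CPM in Gel100. Plasmacytoid dendritic cells held 250.2 CPM in Gel50_CS50 and 264 CPM in Gel100, a ratio of -0.08 with an interval across 0 (-0.19 to 0.03), and conventional ones had 94.7 CPM in Gel50_CS50 and 167 CPM in Gel100. Plasmacytoid dendritic cells had the highest Stat2 level of any class in Gel50_CS50 and were second to neutrophils in Gel100.

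Irf9, the partner that gives the complex its DNA contact, had 67.6 CPM in Gel50_CS50 and 90.2 CPM in Gel100 macrophages, a ratio of -0.42 (-0.47 to -0.36) that did not pass 1.5-fold. Neutrophils had 171 CPM in Gel50_CS50 and 195 CPM in Gel100. In stromal, T and NK cells it had 45.1, 81.2 and 58.3 CPM in Gel50_CS50, against 45.6, 105 and 71.4 CPM in Gel100. Conventional dendritic cells were the exception, with 47.8 CPM in Gel50_CS50 and 88.6 CPM in Gel100 (ratio -0.89), and plasmacytoid dendritic cells had 90.2 CPM in Gel50_CS50 and 98.2 CPM in Gel100. Irf9 shares exon bases with Rnf31 on the same strand, so its reads and those of Rnf31 may overlap. Ifi35, a protein reported to bind signalling partners in the cytoplasm, had a ratio of -0.77 in macrophages and -0.12 in plasmacytoid dendritic cells.

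None of the 3 members of the membrane group passed 1.5-fold in macrophages. Bst2, or tetherin, holds budding viruses to the cell surface and marks plasmacytoid dendritic cells in mice. It had 2417 CPM in Gel50_CS50 and 2121 CPM in Gel100 plasmacytoid dendritic cells, a ratio of 0.19 (0.15 to 0.22). Macrophages had 524 CPM in Gel50_CS50 and 771 CPM in Gel100 (ratio -0.56), and neutrophils had 146 CPM in Gel50_CS50 and 253 CPM in Gel100. Levels in stromal, T and NK cells were 481, 230.0 and 161 CPM in Gel50_CS50, against 654, 321 and 201 CPM in Gel100, and conventional dendritic cells had 284 CPM in Gel50_CS50 and 506 CPM in Gel100.

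Ifitm3 blocks the fusion of viruses with endosomes and was the only member lower past 1.5-fold in no class where it was measured. It had 2534 CPM in Gel50_CS50 and 3013 CPM in Gel100 macrophages, 2291 CPM in Gel50_CS50 and 3292 CPM in Gel100 neutrophils, and 2081 CPM in Gel50_CS50 and 2155 CPM in Gel100 stromal cells. T, NK and plasmacytoid dendritic cells carried little of it, with 149, 155 and 72.1 CPM in Gel50_CS50 and 173, 128 and 97.1 CPM in Gel100, and conventional dendritic cells had 803 CPM in Gel50_CS50 and 1144 CPM in Gel100. The NK ratio of 0.27 (0.08 to 0.47) was above 0. Ifi27l2a, a small membrane protein, had 2378 CPM in Gel50_CS50 and 2997 CPM in Gel100 macrophages (ratio -0.33) and 1392 CPM in Gel50_CS50 and 1829 CPM in Gel100 neutrophils. Across stromal, T and NK cells it stood at 1511, 2086 and 382 CPM in Gel50_CS50, against 2107, 3118 and 847 CPM in Gel100. The lymphoid and dendritic ratios were the larger ones, -1.15 in NK cells, -0.81 in plasmacytoid dendritic cells (1752 CPM in Gel50_CS50, 3067 CPM in Gel100) and -1.09 in conventional dendritic cells (1055 CPM in Gel50_CS50, 2251 CPM in Gel100).

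Ifitm3 and Ifi27l2a made up much of the summed list. Summed over 38 members, macrophages had 12135 CPM in Gel50_CS50 and 19211.5 CPM in Gel100, a ratio of -0.66, and without this pair they had 7223 CPM in Gel50_CS50 and 13202 CPM in Gel100, a ratio of -0.87. In plasmacytoid dendritic cells the ratio of the sums was -0.32 over 38 members and -0.14 without these genes.

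Ifi204 and Ifi205, DNA sensors of the PYHIN family, had ratios of -0.79 and -0.85 in macrophages, and Ifi205 was measured only in macrophages, stromal cells and conventional dendritic cells. Phf11b and Phf11d had ratios of -1.27 and -1.34 in macrophages, -1.21 and -0.80 in stromal cells, and were scarce in neutrophils, with 5.15 and 4.82 CPM in Gel50_CS50 and 34.9 and 19.0 CPM in Gel100. The Schlafen genes Slfn1, Slfn5 and Slfn8 are linked to the control of growth and of transfer RNA, and each was highest in neutrophils in both libraries. There Slfn1 had 895 CPM in Gel50_CS50 and 971 CPM in Gel100 (ratio -0.12), Slfn5 had 1040 CPM in Gel50_CS50 and 1697 CPM in Gel100 (ratio -0.71), and Slfn8 had 375 CPM in Gel50_CS50 and 597 CPM in Gel100 (ratio -0.67). In conventional dendritic cells the ratios were -2.42 for Slfn1 (36.8 CPM in Gel50_CS50, 196 CPM in Gel100), -1.12 for Slfn5 and -0.24 for Slfn8.

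Parp9, Parp14 and Dtx3l act in ADP-ribosylation, and Parp9 and Dtx3l form a complex. All 3 were lower past 1.5-fold in macrophages and in conventional dendritic cells, with medians of -0.62 and -1.06, and none was so in stromal, NK or plasmacytoid dendritic cells. Of the 7 remaining members, 4 were lower past 1.5-fold in macrophages, in neutrophils and in T cells, and all 7 in conventional dendritic cells. Xaf1, a partner of an apoptosis inhibitor, had a ratio of -1.03 in macrophages and -0.41 in stromal cells. Ifi44 was low in neutrophils, at 10.97 CPM in Gel50_CS50 and 74.3 CPM in Gel100, while macrophages had 464 CPM in Gel50_CS50 and 869 CPM in Gel100. Rtp4, Samd9l, Sp100 and Trim30a had ratios of -0.64 to -0.45 in macrophages.

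Lgals3bp, a secreted glycoprotein that binds galectin 3, had 352 CPM in Gel50_CS50 and 553 CPM in Gel100 macrophages (ratio -0.65), against only 13.3 CPM in Gel50_CS50 and 38.3 CPM in Gel100 neutrophils. In stromal, T and NK cells there were 186, 105 and 140.2 CPM in Gel50_CS50, against 281, 143 and 193 CPM in Gel100. In plasmacytoid and conventional dendritic cells it had 63.9 and 46.0 CPM in Gel50_CS50, against 105 and 77.7 CPM in Gel100. It was highest in macrophages and lowest in neutrophils in both libraries, whereas Rsad2 was highest in neutrophils.

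Across the list, neutrophils were the class of highest level for 24 of 38 members in Gel50_CS50 and 26 of 38 in Gel100. They had 22049 CPM of the summed list in Gel50_CS50 and 40499.5 CPM in Gel100, which is 182% of the macrophage sum in Gel50_CS50 and 211% in Gel100. Neutrophils were shallow, at a median of 4351 UMIs in Gel50_CS50 and 4094 in Gel100, against 19117 and 15683 in macrophages. Summed member UMIs were 132625 in 1261 neutrophils and 870322 in 3438 macrophages of Gel50_CS50. In Gel100 they were 108958 in 571 neutrophils and 1234505 in 4068 macrophages. Per cell, macrophages thus held more member UMIs in both libraries. The members that were highest elsewhere in both libraries were Oas1a, Ifi44, Ifi35, Bst2, Ifi204, Ifi205, Ifi27l2a, Phf11b, Phf11d, Xaf1 and Lgals3bp. Neutrophils were spread over clusters built without the members. In the largest, with 748 cells in Gel50_CS50 and 444 in Gel100, the median ratio was -0.77 over 33 members, and in the next, with 463 cells in Gel50_CS50 and 60 in Gel100, it was -0.54 over 31. In a small cluster of 46 cells in Gel50_CS50 and 61 in Gel100 the summed list was only 3934 CPM in Gel50_CS50 and 3532 CPM in Gel100. There the median ratio was 0.24, and 4 of 28 members were lower past 1.5-fold and 8 higher, where 12.6% of all measured genes were lower and 18.2% higher.

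Macrophages and monocytes were then split into 8 states by marker genes that hold no member, and the list was lower in Gel50_CS50 within all of them, in different degrees. In cells high in Gpnmb and Trem2, genes of lipid-handling and multinucleated macrophages, 36 of 38 members were lower past 1.5-fold (median -1.14), where 6.75% of all measured genes were lower and 2.36% higher. The Arg1 Cxcl3 state had 35 of 38 lower (median -1.02), where 8.81% of all genes were lower and 5.93% higher. The Cd36 Ltc4s Ccl24 state had 32 of 38 (median -0.84), where 4.28% were lower and 2.57% higher. The Saa3 Adgre4 state had 30 of 38 (median -1.001), where 5.45% were lower and 3.11% higher, and the Chil3 Vcan state had 28 of 38 (median -0.76), where 7.49% were lower and 7.04% higher. Fewer members passed in the other 3 states. The state high in MHC class II genes had 18 of 38 (median -0.57), where 2.88% were lower and 1.4% higher. The Mrc1 Folr2 state, with genes of tissue-resident macrophages, had 14 of 37 (median -0.42), where 2.49% were lower and 1.31% higher. Cycling cells had 12 of 37 (median -0.36), where 4.8% were lower and 5.66% higher. Cells of no state had 24 of 38 (median -0.71), where 4.49% were lower and 3.1% higher. No member was higher past 1.5-fold in any state, and 6 of 302 measured pairs of member and state had a ratio above 0, 5 of them in cycling cells. A state is a range of a score and not a cell type, and 6.52% and 7.35% of macrophages lay within 0.1 SD of the dividing line in Gel50_CS50 and Gel100. The Mrc1 Folr2 value depended on that line: the ratio of its summed list was -0.29, and -0.055 with a stricter cut.

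The Chil3 Vcan state, whose genes mark newly arrived monocytes, had the highest level of the list. Its summed level was 19463 CPM in Gel50_CS50 and 32221 CPM in Gel100, and it was the state of highest level for 35 of 38 members in Gel50_CS50 and 37 of 38 in Gel100. Rsad2 had 1114 CPM in Gel50_CS50 and 2748 CPM in Gel100 in this state, and in the Mrc1 Folr2 state 202 CPM in Gel50_CS50 and 269.9 CPM in Gel100. Isg15 had 1061 CPM in Gel50_CS50 and 2158 CPM in Gel100 in the Chil3 Vcan state, and in the Mrc1 Folr2 state 167 CPM in Gel50_CS50 and 320 CPM in Gel100. The exceptions were Lgals3bp in both libraries, and Bst2 and Ifi27l2a in Gel50_CS50. The lowest summed levels were 7606 CPM in the Gpnmb Trem2 state of Gel50_CS50, against 14584 CPM in the same state of Gel100, and 9737 CPM in cycling cells of Gel100, against 8234 CPM in those of Gel50_CS50. The Gpnmb Trem2 state was the lowest of the 8 in Gel50_CS50 and the third lowest in Gel100.

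**Figure D4:**
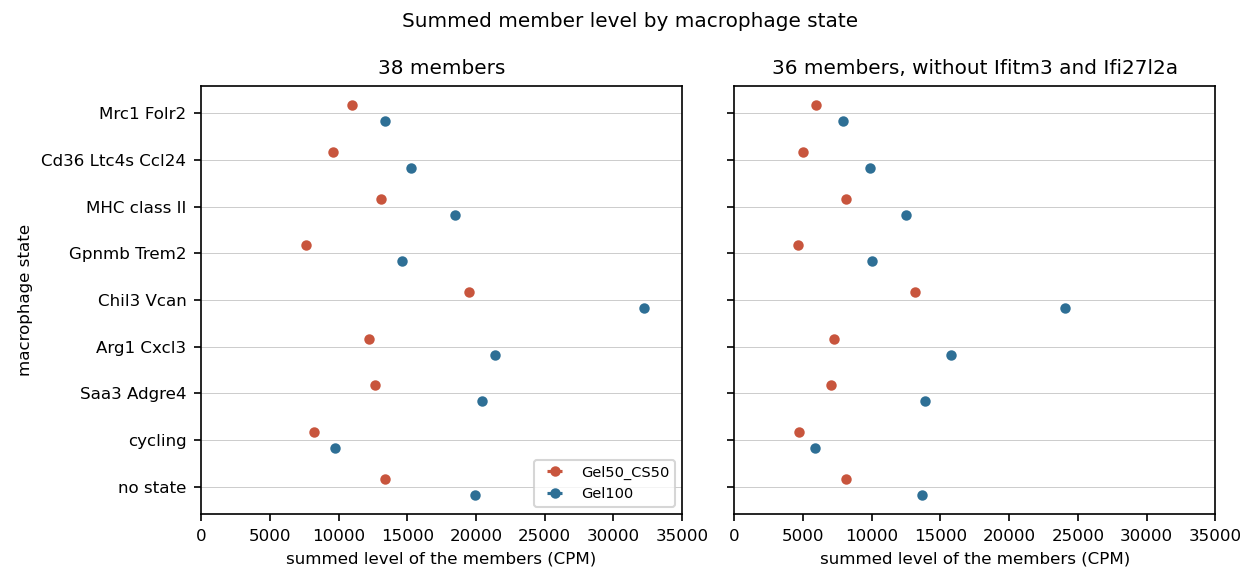
Summed level of the list (CPM, linear axis from 0) in 8 macrophage states and in cells of no state, with Gel50_CS50 in red above Gel100 in blue, for 38 members at left and without Ifitm3 and Ifi27l2a at right; exact Poisson intervals are smaller than the points. Every state is lower in Gel50_CS50, the Chil3 Vcan state is highest in both libraries, and the gap is smallest in the Mrc1 Folr2 state and in cycling cells.

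The 6 members Isg15, Ifit1, Ifit2, Ifit3, Oas3 and Phf11b were lower past 1.5-fold in all 8 states, and Ifit1bl1 in all 6 states where it was measured. The ratio of Isg15 lay between -1.48 in the Gpnmb Trem2 state and -0.60 in cycling cells, and that of Ifit2 between -2.24 in the Cd36 Ltc4s Ccl24 state and -0.87 in the Mrc1 Folr2 state. Ifitm3 lay between -0.60 in the Gpnmb Trem2 state and -0.06 in the Arg1 Cxcl3 state. Irf9 had 71.5 CPM in Gel50_CS50 and 70.8 CPM in Gel100 in the Mrc1 Folr2 state, the only member with a ratio above 0 outside cycling cells. The make-up of the macrophages also differed: the Mrc1 Folr2 state held 12.5% of them in Gel50_CS50 and 4.55% in Gel100, and cells of no state 29.1% in Gel50_CS50 and 44.4% in Gel100. With the same share of each state in both libraries, the median ratio of the list was -0.74 and 26 of 38 members were lower. In clusters built without the members, the median was below 0 in all 10 that held at least 20 macrophages per library, between -0.73 and -0.11. The value of -0.11 was that of a cluster of 541 cells in Gel50_CS50 and 146 in Gel100, in which 0 of 37 members were lower or higher past 1.5-fold, where 1.92% of all measured genes were lower and 1.55% higher. Weighted to the same share of each cluster, the median was -0.61 and 21 of 38 were lower. No share of all genes past 1.5-fold is given for either weighting.

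Cells were brought to 1 depth to describe how the list was spread over them. Thinned to 3000 UMIs, the median macrophage had 32 member UMIs in Gel50_CS50 and 55 in Gel100, with lower and upper quartiles of 20 and 48 in Gel50_CS50 and 33 and 80 in Gel100. Shallower cells, 46 in Gel50_CS50 and 572 in Gel100, were left out. The top 10% of cells held 26.5% of the member UMIs in Gel50_CS50 and 22.4% in Gel100. The lowest 10% of cells ended at 12 UMIs in Gel50_CS50 and 19 in Gel100, so the libraries differed at the low end of the distribution too. In neutrophils the median was 52 in Gel50_CS50 and 130 in Gel100, with quartiles of 23 and 94 in Gel50_CS50 and 52 and 199 in Gel100. Neutrophils differed little at the low end, where the lowest 10% ended at 11 UMIs in Gel50_CS50 and 11.6 in Gel100, while the highest 10% began at 146 in Gel50_CS50 and 262 in Gel100. Before thinning, the macrophage sums were 12135 CPM in Gel50_CS50 and 19211.5 CPM in Gel100.

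**Figure D5:**
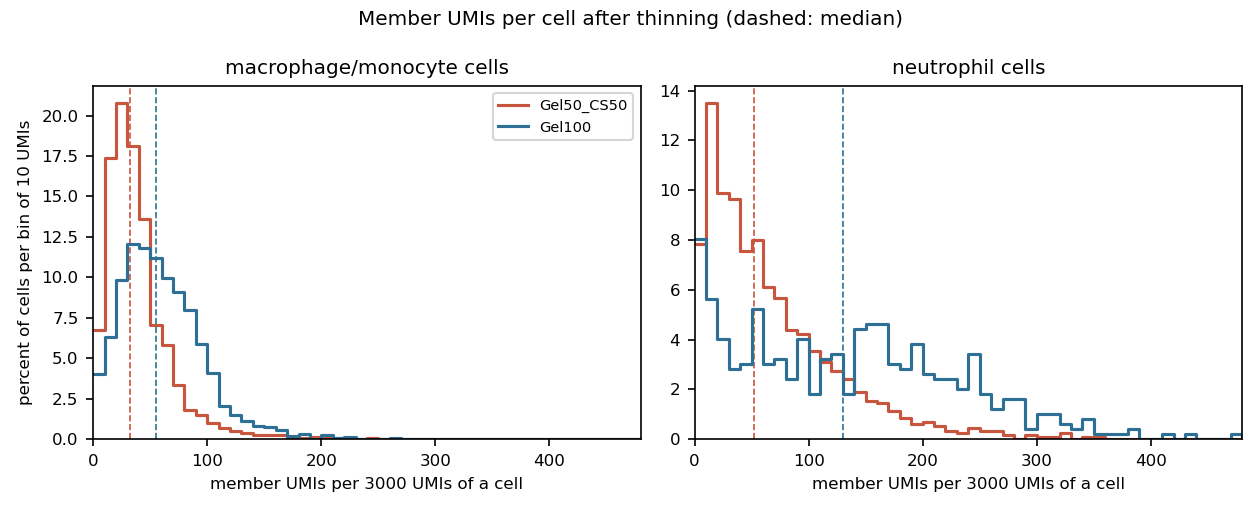
Distribution over cells of member UMIs per 3000 UMIs, in bins of 10, for macrophages and monocytes at left and neutrophils at right, as a percentage of cells, with Gel50_CS50 in red, Gel100 in blue and medians dashed. The macrophage medians are 32 in Gel50_CS50 and 55 in Gel100, and the neutrophil medians are 52 in Gel50_CS50 and 130 in Gel100.

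Members also varied together from cell to cell within a library. Over 3392 macrophages of Gel50_CS50 and 3496 of Gel100, each thinned to 3000 UMIs, the correlation of a gene with the mean of the other members was highest for Isg15 (Pearson r of 0.68 in Gel50_CS50 and 0.73 in Gel100), with Ifit2 (0.67 in Gel50_CS50 and 0.69 in Gel100) and Rsad2 (0.67 in Gel50_CS50 and 0.71 in Gel100) next. It was lowest for Irf9 (0.10 in Gel50_CS50 and 0.04 in Gel100), and low too for Lgals3bp (0.18 in Gel50_CS50 and 0.26 in Gel100) and Oas2 (0.19 in Gel50_CS50 and 0.18 in Gel100). Of the 703 pairs, Ifit2 with Rsad2 was the closest in both libraries (0.58 in Gel50_CS50 and 0.60 in Gel100), and the median pair had 0.19 in Gel50_CS50 and 0.21 in Gel100. These are descriptions over cells of 1 library that share its depth and free RNA, and sparse counts give low values. Among genes outside the list, the 10 most like its mean were Ms4a4c, Plac8, Slfn4, Ifi209, Ifi202b, Ly6c2, Ifi214, Fcgr1, Pde7b and Cxcl10. Ms4a4c had r of 0.58 in Gel50_CS50 and 0.57 in Gel100, with 489.9 CPM in Gel50_CS50 and 991 CPM in Gel100 macrophages. Ly6c2, a marker of inflammatory monocytes, had 484 CPM in Gel50_CS50 and 1370 CPM in Gel100 (ratio -1.50), and has near-identical relatives, so its level is uncertain. Across cells Ly6c2 had r of 0.51 in Gel50_CS50 and 0.57 in Gel100 with the mean of the list, and its part in the result was not tested.

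The members with and without the promoter motif overlapped in their macrophage ratios. The 16 members with a match had a median of -1.03, with a range of -2.52 to -0.25. The 15 without one had a median of -0.83, with a range of -1.59 to -0.42, and the 7 with no entry had -0.59. In neutrophils the order was the other way round, -0.77 with a match and -0.86 without.

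Upstream of the list, the interferon genes themselves were rare and unevenly placed. Ifnb1, which codes for interferon beta, had 41 UMIs in 16 of 3438 macrophages in Gel50_CS50, against 398 UMIs in 146 of 4068 macrophages in Gel100. That is 0.572 CPM (0.410 to 0.776) in Gel50_CS50 and 6.19 CPM (5.60 to 6.83) in Gel100, a ratio of -3.44 (-3.94 to -2.97). Its level is under the limit for a measured gene, so it enters no count. Stromal, T, NK and conventional dendritic cells had 0 Ifnb1 UMIs in both libraries, neutrophils had 0 in Gel50_CS50 and 1 in Gel100, and plasmacytoid dendritic cells had 2 in Gel50_CS50 and 1 in Gel100. At so low a macrophage level, counts of 0 in these smaller classes cannot show whether free RNA was present. Within the Gpnmb Trem2 state there were 3 Ifnb1 UMIs in 2 of 228 cells of Gel50_CS50 and 114 in 35 of 371 cells of Gel100. The Chil3 Vcan state had 22 UMIs in 4 of 241 cells of Gel50_CS50 and 78 in 29 of 351 cells of Gel100, and the Arg1 Cxcl3 state had 1 UMI in 320 cells of Gel50_CS50 and 41 in 7 of 149 cells of Gel100. The other states held fewer in Gel100: Saa3 Adgre4 had 3 UMIs in Gel50_CS50 and 27 in Gel100, MHC class II 2 in Gel50_CS50 and 16 in Gel100, and Cd36 Ltc4s Ccl24 0 in Gel50_CS50 and 7 in Gel100. Cycling cells went the other way at very low counts, with 4 UMIs in 1 of 88 cells of Gel50_CS50 and 1 UMI in 86 cells of Gel100, as did the Mrc1 Folr2 state with 1 UMI in Gel50_CS50 and 0 in Gel100. Cells of no state held 5 UMIs in Gel50_CS50 and 114 in Gel100. A few cells held many of the UMIs. Of the listed interferon alpha genes, the largest count in any library was 1 UMI, for Ifna2 in Gel100. Over all cells, Ifnk had 17 UMIs in Gel50_CS50 and 10 in Gel100, and Ifnl2 had 2 in Gel50_CS50 and 0 in Gel100, so these few counts did not follow Ifnb1.

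Ifng, the gene of interferon gamma, had its highest levels in lymphocytes. NK cells had 150 UMIs, or 74.1 CPM (62.7 to 86.9), in Gel50_CS50 and 779 UMIs, or 143 CPM (134 to 154), in Gel100, a ratio of -0.95. T cells had 61 UMIs, or 23.6 CPM, in Gel50_CS50 and 171 UMIs, or 51.7 CPM, in Gel100 (ratio -1.13). Macrophages had 0.0418 CPM in Gel50_CS50 and 0.576 CPM in Gel100. Ifng was thus lower in Gel50_CS50 in both lymphocyte classes. Stromal cells went the other way at very low counts, with 23 UMIs in 4 of 661 cells of Gel50_CS50 and 1 UMI in 234 cells of Gel100. Neutrophils had 0 UMIs in Gel50_CS50 and 4 in Gel100, and plasmacytoid dendritic cells had 1 in Gel50_CS50 and 8 in Gel100.

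The counts of companion genes in macrophages stand beside 4.39% of 6131 measured genes lower past 1.5-fold and 2.27% higher. A count of 0 or 1 in so short a list therefore says little. Of the receptor chains and kinases of both interferon pathways, 0 of 7 passed 1.5-fold. Ifnar1 had 132 CPM in Gel50_CS50 and 152 CPM in Gel100. Ifnar2 had 287 CPM in Gel50_CS50 and 283 CPM in Gel100, and Ifngr1 had 164 CPM in Gel50_CS50 and 132 CPM in Gel100. Among transcription factors, Irf7, which amplifies interferon genes, had 605 CPM in Gel50_CS50 and 1174 CPM in Gel100 (ratio -0.96). Of 9 measured nucleic acid sensors 5 were lower, among them Zbp1 (204 CPM in Gel50_CS50, 397 CPM in Gel100), Ifih1 and Ddx58, while Tlr7 and Tmem173 were not. Genes that lean towards interferon gamma were lower in 9 of 12, with Gbp2 at 67.6 CPM in Gel50_CS50 and 195 CPM in Gel100 (ratio -1.53) and Cxcl9 at 24.3 CPM in Gel50_CS50 and 53.2 CPM in Gel100. The 3 that were not lower were the MHC class II genes H2-Ab1 and H2-Aa and their regulator Ciita, with ratios of 0.13, 0.16 and 0.18. Of the brakes 1 of 6 was lower, Socs1 (13.1 CPM in Gel50_CS50, 32.7 CPM in Gel100), which is also counted among the 9 of 12, and Socs3 had a ratio of 0.42. Of 13 measured housekeeping genes 1 was lower, B2m, itself an interferon target (ratio -0.70), and the median was 0.12. Of 11 macrophage core genes 0 were lower and Lyz2 was higher (ratio 0.59), with a median of -0.06. These companion lists, like the members, were chosen with earlier results of these data known, so their counts are descriptions too.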

How the data were processed

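Droplet single-cell RNA was measured in 1 library per scaffold, each from 5 pooled mice. The deposited values are raw UMI counts per gene and barcode. Their version, Cell Ranger 6.0.2, is given per the file headers, and mm10 is named as the build in the submitters' processing notes. The matrices held 7515 barcodes and 150311308 UMIs in Gel50_CS50, and 7845 barcodes and 108847835 UMIs in Gel100.

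Barcodes with at least 200 genes, 500 UMIs and under 20% mitochondrial counts were kept, and doublets called by Scrublet at an expected rate of 0.06 were removed (192 or 2.60% in Gel50_CS50, 179 or 2.30% in Gel100). A cell took the class with the largest share of its markers detected, where that share was at least 0.3 and led the next class by at least 0.2. Of the cells, 8.94% in Gel50_CS50 and 8.80% in Gel100 lay near that lead. Macrophage states needed a score of 1 SD and a lead of 0.25. Clusters used 3000 variable genes, 30 components, 15 neighbours and a resolution of 1, without the members and companion genes.

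Counts were summed per class and library, with exact 95% intervals that cover counting error only. The ratio code was tested on simulated data. With 1 library per scaffold no p-value was computed. All 38 members are named; 14 have values in every class, with the 3 highest and 3 lowest ratios per class, the 10 genes most correlated with the list, and companion lists. The members and lists were chosen with earlier results of these data known. Alternatives covered cell weighting, depth, scaling, level filters, doublets, gates, class make-up and close copies. Shared barcodes, cluster make-up and the sum without Ifitm3 and Ifi27l2a were added after seeing the data. Tools were scanpy 1.11.5 and leidenalg 0.10.2 in Python 3.11.15, with scikit-learn 1.9.0, pandas 2.3.3, scipy 1.17.1, matplotlib 3.10.9 and numpy 2.4.6. Gene positions are from GENCODE vM21 on mm10. A single gene of the other pathway lists is not reported here.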

Additional observations from a re-analysis of the deposited data

Results flagged for a closer look

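For 3 members, 1 class had a ratio above 0 with an interval wholly above 0, while every other class where the member was measured had a ratio below 0. Ifit1 in NK cells had a log2 ratio of 0.40 (0.05 to 0.74), with 52.3 CPM in Gel50_CS50 and 39.8 CPM in Gel100. Bst2 in plasmacytoid dendritic cells had a ratio of 0.19 (0.15 to 0.22), with 2417 CPM in Gel50_CS50 and 2121 CPM in Gel100. Ifitm3 in NK cells had a ratio of 0.27 (0.08 to 0.47), with 155 CPM in Gel50_CS50 and 128 CPM in Gel100. None of these passed 1.5-fold. The difference between the classes was not tested, since each scaffold is 1 pool.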

How the results depend on the processing

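No paired analysis was possible because each scaffold has 1 library, and for the same reason no replicate could be left out. Over all results and alternatives, 258 values stayed within the limits set, 63 moved and none changed sign, though a sign does not apply to the values that are counts. Among them, the 14 named members in macrophages gave 29 values that moved and 27 that stayed, all in the same direction. Those members were run only with equal cell weights, thinned cells, median of ratios scaling and the same share of each state. The macrophage median of -0.83 became -0.76 with each cell weighted equally, -0.74 with the same share of each state, -0.61 with the same share of each cluster and -0.76 without close copies. The stromal median of -0.36 became -0.66 with each cell weighted equally (24 lower, against 8) and -0.49 with the same share of each cluster. With a minimum of 100 CPM the lower members numbered 4 in stromal cells, 10 in T cells, 3 in NK cells, 2 in plasmacytoid and 20 in conventional dendritic cells, since fewer members are then measured. In NK cells the lower count of 8 became 15 with a stricter gate and 15 with clusters in place of gates, and 1 member was higher in thinned cells and 1 with no minimum. In plasmacytoid dendritic cells the lower count of 5 became 14 with no minimum and 8 with clusters. No share of all genes past 1.5-fold is given beside the counts under the alternatives. The conventional dendritic median of -1.09 became -1.49 with the stricter gate. With a stricter state cut the ratio of the summed list was -0.055 in the Mrc1 Folr2 state, -0.56 in Cd36 Ltc4s Ccl24, -0.88 in Gpnmb Trem2, -0.69 in Chil3 Vcan, -0.84 in Arg1 Cxcl3, -0.30 in cycling cells and -0.61 in cells of no state. In cells thinned to 3000 UMIs it was -0.66 in Cd36 Ltc4s Ccl24, -0.42 in MHC class II, -0.96 in Gpnmb Trem2, -0.70 in Chil3 Vcan, -0.68 in Arg1 Cxcl3, -0.67 in Saa3 Adgre4 and -0.39 in cycling cells. The log2 ratio of the per-cell medians in macrophages was -0.78, and -1.08 without Ifitm3 and Ifi27l2a. The cause of these moves was otherwise not tested. Depth limits the classes of few cells most, above all the 62 and 92 conventional dendritic cells.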
